A study of Homo sapiens with 6 samples.

Results

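The genes described here are 33 named genes of epithelial junctions, cell polarity and epithelial identity, taken from a fixed list of symbols that was drawn up with earlier results of these arrays known. They were followed in the human lung tumour line NCI-H292, derived from a mucoepidermoid carcinoma and grown in serum-containing medium and carrying a stably integrated plasmid. In the CT45A1 overexpression group (3 arrays) the plasmid encoded CT45A1, a cancer/testis antigen, joined to the fluorescent protein Venus, and in the CT45A1 negative group (3 arrays) it encoded Venus alone. Both groups therefore carry Venus, and the labels do not say whether each line was 1 clone or a pool, nor whether the 3 arrays of a group came from different cultures. The p-values, SEs and intervals therefore reflect no more than array-to-array spread, possibly technical, and the small number of arrays limits the precision. Of the 33 genes, 31 had probe sets annotated to that gene alone, among 19775 such genes on the array, and these 31 genes had 66 probe sets. ESRP2 had only a probe set shared with a microRNA gene, and F11R had none listed here, so neither was analysed. A further member, CLDN3, was too dim to test, which left 30 genes. Of the 66 probe sets, 8 were too dim to keep and 58 were tested. Those 8 were the probe sets of CLDN3 and a dimmer one each of OVOL1, OVOL2, CLDN4, TJP3, PKP2 and CDS1. Only for CLDN3 are values of such probe sets given below.

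An epithelial sheet is held together by tight junctions near its apical edge, by adherens junctions built on E-cadherin below them, and by desmosomes that anchor keratin filaments. Polarity complexes of the Crumbs, PAR and Scribble groups place these junctions, and a small set of transcription and splicing factors (the GRHL, OVOL and ESE families and the ESRP proteins) keeps the junction genes on. Loss of this programme, with repression of E-cadherin by SNAI and ZEB factors, is the usual definition of epithelial to mesenchymal transition in carcinoma cells.

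Values are deposited MAS5 signals, a linear brightness for each probe set on each array. A difference is the mean log2 signal with CT45A1 minus that without it, and each gene was represented by its brightest probe set that passed a filter on dim signal. The test was limma, with Benjamini-Hochberg adjustment over 11895 genes, or over 27618 probe sets where other probe sets of a gene are described. CT45 transcripts were higher on all 3 overexpression arrays at the brighter CT45 probe set, which is annotated to 9 CT45 genes, with signals of 518, 700.1 and 445 against 23.1, 15.8 and 1.95. The median signal per array was 79.2 to 83.3 in the overexpression group and 72.6 to 75.6 in the negative group, a mean log2 shift of 0.145. The ratio of 3' to 5' actin signal, a sign of RNA integrity, was 1.42 to 1.55 and 1.64 to 1.91 in the same groups. Both differ between the groups without overlap, so their part cannot be told apart from that of CT45A1 and was not tested. Values given below for centred arrays, or for a model with the actin ratio, show only how a difference changes with that setting. In RNA from whole cultures, fewer cells expressing a gene and less RNA per cell cannot be told apart.

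Epithelial markers were bright in both groups. CDH1, EPCAM and all 6 keratins with probe sets (KRT5, KRT7, KRT8, KRT14, KRT18 and KRT19) were above the array median on all 6 arrays, and the summed keratin signal was 59172 to 60043 with CT45A1 and 59230 to 65587 without it. Of these keratins 4 lay above 0 (KRT19 by 0.25, KRT7 by 0.11, KRT8 by 0.07 and KRT5 by 0.05) and 2 below. Only KRT18 passed (16.7% of the 6), downward, beside 1.89% of all genes tested that passed downward. All genes with a mean log2 signal of 11 and over, a range that holds KRT18 (14.64), had a median difference of -0.057. KRT18, a simple epithelial keratin, fell by 0.25 (SE 0.06, limma adjusted p = 0.0367), with 23433, 23098 and 23483 against 28184, 29168 and 26155. That call was lost in 8 of 17 alternatives, which were quantile normalization (adjusted p = 0.224), cyclic loess (0.162), no filter (0.0946), no variance trend (0.237), and leaving out overexpression replicate 1 or 2 or negative replicate 1 or 2 (0.115 to 0.137). KRT14, a basal keratin, differed by -0.58 (SE 0.26, limma adjusted p = 0.237), with overlapping arrays. Of 9 fibroblast markers 6 lay below the array median on all arrays and 1, FAP, lay above it on all. For endothelial markers these counts were 5 and 2 of 8, and for leukocyte markers 3 and 0 of 6 with probe sets. The summed endothelial signal was 528 to 563 with CT45A1 and 350.9 to 478 without it, with no overlap. Of all single genes tested, 27.2% likewise did not overlap. The summed fibroblast signal, 1375 to 1997 against 996 to 1607, and the summed leukocyte signal, 420.3 to 484 against 273 to 443, overlapped. All 3 endothelial markers tested, both leukocyte ones and the 1 fibroblast one lay above 0, and none passed. Dim genes in general leaned the same way. Of all genes with a mean log2 signal under 9, 63.5% lay above 0, with a median of 0.092. The part of these markers in the differences described here was not tested.

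Of 30 junction and identity genes tested, 1 rose (LLGL2), none fell and 29 did not pass. That share, 3.33%, was close to the 3.83% of all genes tested that passed in either direction (1.94% upward, 1.89% downward), so the count is no result about these genes in particular. An unadjusted p under 0.05 was reached by 7 of the 30, 6 upward and 1 downward, and by 20.9% of all genes. The median difference of the 30 was 0.032, beside 0.0085 over all genes, with 17 genes above 0 and 13 below. The groups did not overlap in 12 of the 30 (7 higher, 5 lower), against 27.2% of all genes (13.4% higher, 13.8% lower). The mean log2 signal of the 30 overlapped between groups, since the lowest overexpression array, at 10.89, lay below the highest negative one, at 10.94. Scaling mattered for direction. With each array centred on its median, the members' median difference was -0.11, 20 of the 30 lay below 0 and 4 passed, all lower (CDH1, EPCAM, CLDN7 and CDS1). Under that scaling 165 of all genes rose and 1650 fell, in place of 231 and 225, and the median over all genes was -0.14.

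The intervals at the brightest probe set of each gene show how large a difference between these arrays could have been missed there. Like the p-values, they reflect array-to-array spread only, possibly technical, and do not bound what separate cultures would show. For 24 of the 30 genes the 95% limma interval, unadjusted, lay within a 1.5-fold change in either direction, against 69.7% of all genes. None of these 30 intervals reached down to a 1.5-fold decrease, and the lowest bound was a 1.47-fold decrease for OVOL2 (-0.55 on the log2 scale). Of all genes, 87.2% likewise stayed above that decrease. The 6 intervals that passed 1.5-fold all did so upward, in ELF3, TJP3, LLGL2, GRHL1, OVOL1 and CLDN4. With each array centred on its median, 28 of the 30 stayed above a 1.5-fold decrease and the lowest bound was a 1.64-fold decrease, again for OVOL2. After quantile normalization 29 of the 30 did, with OVOL2 at a 1.53-fold decrease. Over all 58 member probe sets, 40 intervals lay within a 1.5-fold change and 18 did not, against 57.1% within it for all probe sets. Low ends reached -0.78 at the dimmer MARVELD2 probe set and -0.74 at one of EHF, and high ends reached 1.66 in TJP3.

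**Figure D1:**
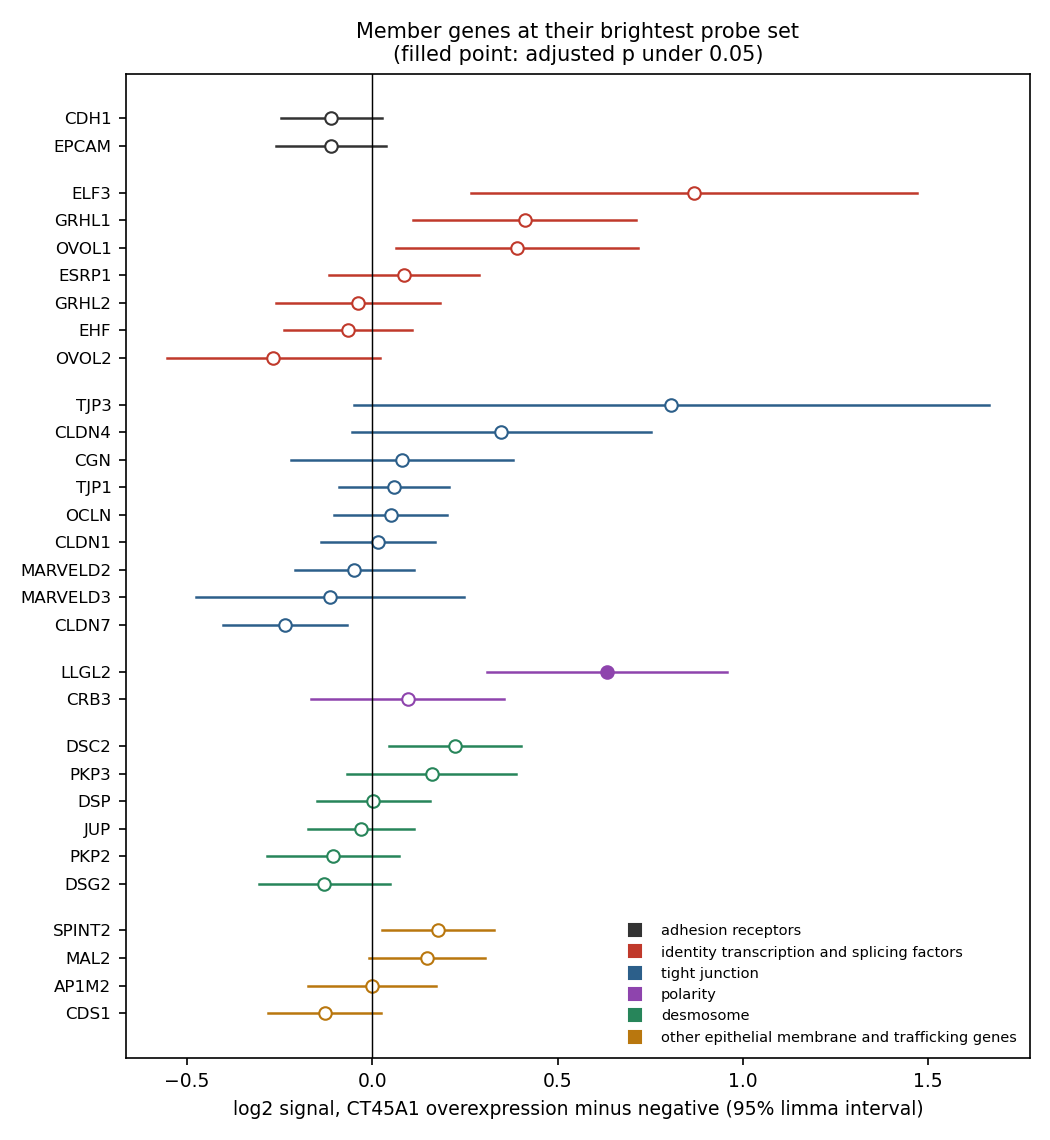
Difference in log2 signal (overexpression minus negative) of the 30 member genes tested, with the 95% limma interval, grouped and coloured by role; a filled point marks an adjusted p under 0.05. LLGL2 is the only filled point, and ELF3 (0.87) and TJP3 (0.81) lie farther from 0 with wider intervals.

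Dim and bright members had different medians, as did dim and bright genes in general. Of the 7 members with a mean log2 signal under 9, 6 lay above 0, with a median of 0.35, while the 4586 genes of that level had a median of 0.092. The 7 members between 9 and 11 had a median of -0.00025 and the 16 members of 11 and over had -0.014, beside 0.0093 and -0.057 for all genes of those levels.

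**Figure D2:**
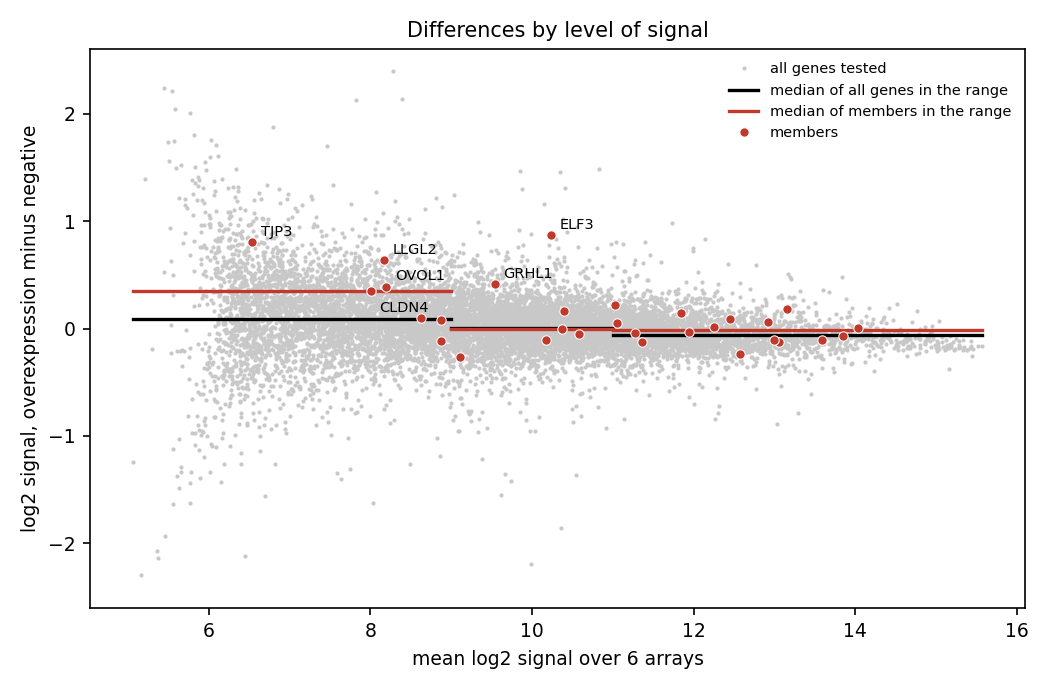
Difference in log2 signal against the mean log2 signal over 6 arrays for all genes tested (grey) and members (red), with horizontal lines at the medians in 3 ranges of signal. Members of 11 and over cluster near 0, with a median of -0.014, and those under 9 lie mostly above it, with a median of 0.35.

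Promoters were read to see what these genes share beyond their names. The E-box CAGGTG, searched on both strands (CACCTG on the other), is the site through which ZEB and SNAI factors are known to repress epithelial genes, and ACCGGT, which is its own reverse complement, is the core of the motif bound by GRHL factors. RefSeq start sites on GRCh38.p14 were in the table used for 19 of the 33 genes, with 28 promoters, and 250 bases before each start were searched. Of the 28 promoters, 13 held the E-box (46.4%), in 12 genes, against 17.5% of all 35116 promoters and 17.0% of promoters of protein-coding genes. At least 3 E-boxes were present in 3 of the 28 (10.7%), against 0.464% of all, and these were CRB3, AP1M2 and the second listed start of CLDN7. The members' promoters also had a higher share of G and C, with a median of 66.4% against 58.0% in all promoters and 62.0% in those of protein-coding genes, and alternative starts of 1 gene can overlap, as in OCLN. ACCGGT was in 0 of the 28 and in 1.45% of all promoters, which says only that these letters are not in these windows. The 3 promoters richest in E-boxes, and that of ELF3, the member with the largest difference, are shown 5′ to 3′ on the gene's own strand and end at the base before the start, with the E-boxes in capitals. CLDN7, on the minus strand at chr17:7262479-7262728, held 4. CRB3, on the plus strand at chr19:6464021-6464270, held 5. AP1M2, on the minus strand at chr19:10587313-10587562, held 3. ELF3, on the plus strand at chr1:202010337-202010586, held 1.
CLDN7: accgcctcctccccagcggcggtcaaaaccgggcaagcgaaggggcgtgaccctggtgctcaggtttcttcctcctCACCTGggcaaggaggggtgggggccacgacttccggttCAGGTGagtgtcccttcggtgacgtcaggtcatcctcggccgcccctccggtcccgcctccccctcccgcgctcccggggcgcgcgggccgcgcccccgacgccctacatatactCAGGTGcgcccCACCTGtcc
CRB3: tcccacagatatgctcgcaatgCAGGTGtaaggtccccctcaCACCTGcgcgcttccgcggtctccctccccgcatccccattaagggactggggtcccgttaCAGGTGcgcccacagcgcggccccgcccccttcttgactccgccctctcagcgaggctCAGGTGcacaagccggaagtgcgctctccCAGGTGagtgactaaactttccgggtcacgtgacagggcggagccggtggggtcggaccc
AP1M2: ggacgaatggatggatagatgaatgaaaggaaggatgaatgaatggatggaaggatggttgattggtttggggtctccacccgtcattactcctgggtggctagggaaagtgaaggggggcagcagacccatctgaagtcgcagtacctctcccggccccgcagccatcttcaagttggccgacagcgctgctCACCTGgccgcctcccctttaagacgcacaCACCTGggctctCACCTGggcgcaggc
ELF3: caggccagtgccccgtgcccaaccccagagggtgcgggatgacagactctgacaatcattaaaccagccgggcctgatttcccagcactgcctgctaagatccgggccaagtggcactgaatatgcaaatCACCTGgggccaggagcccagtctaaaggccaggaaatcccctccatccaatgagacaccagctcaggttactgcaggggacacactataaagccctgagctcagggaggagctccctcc
These letters are a description of the sequence and not of binding, which was not measured. Among the 3 genes richest in E-boxes, CLDN7 differed by -0.24, CRB3 by 0.10 and AP1M2 by -0.00025, and none passed.

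Neither of the adhesion receptors, CDH1 and EPCAM, passed. CDH1 encodes E-cadherin, the receptor that joins epithelial cells at adherens junctions. Its signal was 7431, 8021 and 8164 with CT45A1 and 8259, 8774 and 8443 without it. All overexpression arrays lay below all negative ones, by a narrow margin, and the difference was -0.11 (SE 0.06, limma adjusted p = 0.331). The dimmer CDH1 probe set differed by 0.27 in the other direction, with overlapping arrays (adjusted p over probe sets = 0.452). EPCAM encodes an epithelial adhesion molecule used as a carcinoma marker. Its signal was 12657, 11520.0 and 11514 with CT45A1 and 12066, 13683 and 12806 without it. The groups overlapped, and the difference was -0.11 (SE 0.07, limma adjusted p = 0.366). With each array centred on its median, CDH1 and EPCAM differed by -0.25 and -0.26 and passed (limma adjusted p = 0.0366 and 0.0282). Under that scaling the median over all genes was -0.14. Neither passed under any other alternative. CDH1 differed by -0.06 after quantile normalization and by -0.05 after cyclic loess, and lay above 0 in 1 of 17 alternatives, at 0.08. EPCAM ranged from -0.26 to -0.03 over its alternatives.

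None of the 7 identity factors tested passed at its brightest probe set, and 4 lay above 0 and 3 below. ELF3 and EHF are epithelial ETS factors of the ESE family. ELF3 had the largest difference of all members, with signals of 1293, 1799.6 and 1874 with CT45A1 and 1041, 535 and 1289 without it. The lowest overexpression array lay just above the highest negative one, and negative replicate 2 was far below the others. The difference was 0.87 (SE 0.27, limma adjusted p = 0.116), or 1.82-fold. Its other probe sets differed by 0.68 and 0.43 in the same direction, with overlapping arrays. ELF3 differed by 1.13 and passed without negative replicate 3 (limma adjusted p = 0.0365), and by 0.50 without negative replicate 2 (adjusted p = 0.165). It differed by 1.90 with the actin ratio in the model (adjusted p = 0.00815).

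EHF was read by 6 probe sets that did not move together. At the brightest, 225645_at, signals were 13430, 14749 and 15016 with CT45A1 and 16073, 13437 and 15786 without it. These overlapped, with a difference of -0.07 (SE 0.08, limma adjusted p = 0.674 over genes). At 219850_s_at they were 739, 666 and 652 against 1018, 932 and 975, and at 224189_x_at they were 544, 524 and 482 against 709.5, 770.2 and 732. Both of these fell, with no overlap between groups, by 0.51 (SE 0.09, adjusted p = 0.0221) and 0.51 (SE 0.10, adjusted p = 0.0271) over probe sets, where 3.23% of all probe sets passed, 1.34% of them downward. These 2 and one of LLGL2 are the 3 of 58 member probe sets that passed, and the groups did not overlap in 20 of the 58 (10 higher, 10 lower), against 26.6% of all probe sets. A further probe set, 232361_s_at, differed by -0.25 without overlap (adjusted p = 0.162), while 232360_at and 222932_at differed by 0.11 and 0.20 with overlapping arrays. The log2 ratio of 219850_s_at to 225645_at within an array was -4.18, -4.47 and -4.53 with CT45A1 and -3.98, -3.85 and -4.02 without it. That ratio differed by -0.44 between groups (exact permutation test, two-sided p = 0.1, the smallest that 3 against 3 allows, and 0.2 adjusted over 6 such ratios). Which EHF transcripts or exons each probe set reads was not analysed here. Names ending in _s_at or _x_at mark probe sets whose probes can match more than 1 transcript. Both EHF calls, and that of LLGL2 described below, are at such probe sets. The 2 calls were kept under quantile normalization, with differences of -0.53 and -0.57, and under median centring and cyclic loess. They were lost with the actin ratio in the model, at -0.55 and -0.61 (adjusted p = 0.114 and 0.105). They were also lost with no variance trend, where 0 of 58 member probe sets passed. In all, the call at 219850_s_at was lost in 5 of 16 alternatives and that at 224189_x_at in 7 of 16. Leaving out single arrays gave -0.57 to -0.47 and -0.55 to -0.46 at the 2 probe sets. Both calls were lost without overexpression replicate 2 (adjusted p = 0.105 and 0.103), without overexpression replicate 3 (0.0655 and 0.0757) and without negative replicate 1 (0.0812 and 0.0709). The call at 224189_x_at was lost as well without overexpression replicate 1 (adjusted p = 0.0674) and without negative replicate 2 (0.0839).

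**Figure D3:**
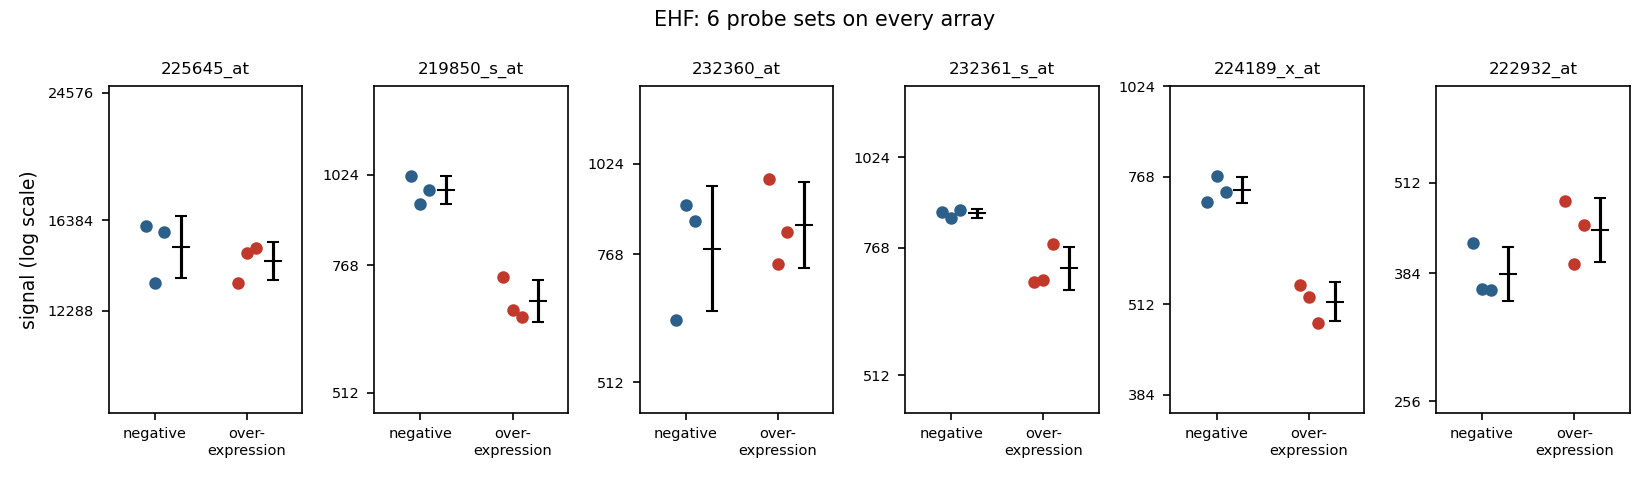
Signal of EHF at its 6 tested probe sets on each array (log axis, a separate scale in each panel), with points for replicates 1 to 3 of each group and bars for the mean ± SD of the log2 signal. The groups are apart at 219850_s_at, 232361_s_at and 224189_x_at and overlap at the other 3.

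GRHL1 and GRHL2 are grainyhead-like factors that activate junction genes. GRHL1 signal was 764, 844 and 985 with CT45A1 and 681, 544 and 729 without it. The groups did not overlap, and the difference was 0.41 (SE 0.14, limma adjusted p = 0.129), with 0.32 at its other probe set. GRHL1 passed with the actin ratio in the model, at 0.82 (adjusted p = 0.0376). GRHL2 differed by -0.04, with overlapping arrays (adjusted p = 0.858). OVOL1 and OVOL2 are zinc finger factors that repress mesenchymal regulators. OVOL1 signal was 369, 333 and 311 with CT45A1 and 238, 240.4 and 296 without it. Again the groups did not overlap, with a difference of 0.39 (SE 0.15, limma adjusted p = 0.170). OVOL2 pointed the other way, at -0.27 (adjusted p = 0.270), with overlapping arrays. ESRP1, a splicing regulator that favours epithelial isoforms, differed by 0.09 at its brightest probe set. The dimmer one, at 3505, 3733 and 3531 against 3309, 2715 and 2882, did not overlap and differed by 0.28 (SE 0.08, adjusted p over probe sets = 0.0997).

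**Figure D4:**
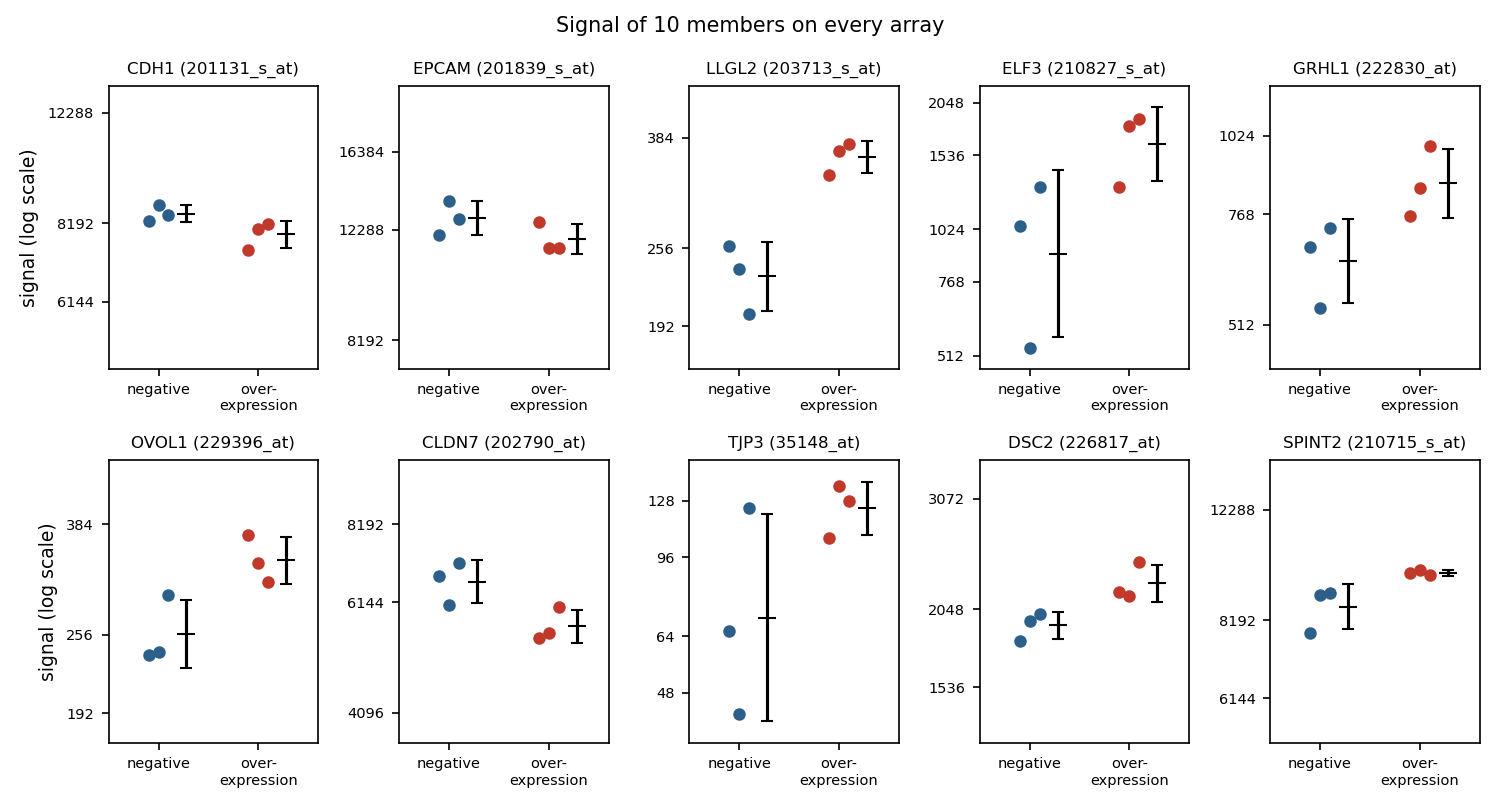
Signal of 10 members at their brightest probe set on each array (log axis, a separate scale in each panel), with points for replicates 1 to 3 and bars for the mean ± SD of the log2 signal. The groups do not overlap in CDH1, LLGL2, ELF3, GRHL1, OVOL1, CLDN7, DSC2 and SPINT2, and they overlap in EPCAM and TJP3. In ELF3 and TJP3 the negative arrays are spread over a wide range.

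Of 9 tight junction genes tested none passed, and the median difference was 0.05. CLDN7, a claudin that also binds EPCAM, was the clearest to lie lower. Its signal was 5383, 5496 and 6031 with CT45A1 and 6761, 6082 and 7089 without it. The groups did not overlap, but the highest overexpression array and the lowest negative one were close, and the difference was -0.24 (SE 0.08, limma adjusted p = 0.122). Centred on array medians it was -0.38 (adjusted p = 0.0145), and with the actin ratio in the model it was -0.03 (adjusted p = 0.914). CLDN1, a barrier-forming claudin, differed by 0.01 at 12.27 ± 0.10 against 12.25 ± 0.04 (mean log2 signal ± SD, n = 3). CLDN4, another sealing claudin, differed by 0.35 (SE 0.18, limma adjusted p = 0.301), with negative replicate 3, at 286, inside the range of 253 to 329 seen with CT45A1.

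None of the MARVEL proteins that line the strands passed. OCLN encodes occludin, and its brightest probe set gave 2154, 2133 and 2217 with CT45A1 and 2149, 2036 and 2099.7 without it. These overlapped, at a difference of 0.05 (SE 0.07), and its 3 other probe sets differed by 0.09 to 0.13. MARVELD2 encodes tricellulin, which seals the points where cells meet at corners. It differed by -0.05, with 1518, 1516 and 1476 below 1572, 1546 and 1544 on every array, a gap too small to pass, and by -0.35 at its dimmer probe set, with overlapping arrays (adjusted p over probe sets = 0.340). MARVELD3 differed by -0.11 with overlapping arrays, and by -0.18 and 0.01 at its other probe sets.

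The cytoplasmic plaque held 1 large difference with a wide interval, in TJP3. TJP1 encodes the scaffold ZO-1 and differed by 0.06 and 0.05 at its 2 probe sets. CGN encodes cingulin, which links the plaque to actomyosin, and differed by 0.08 at the brightest probe set and by 0.41 at the dimmer one, without overlap (adjusted p over probe sets = 0.287). TJP3 encodes ZO-3, a scaffold restricted to epithelia. Its signal was 106, 138 and 128 with CT45A1 and 65.7, 43.1 and 123 without it. Negative replicate 3 lay within the overexpression range and the other negative arrays lay below their array median, so the difference of 0.81 (SE 0.39, limma adjusted p = 0.263) had a wide interval, -0.05 to 1.66. CLDN3 was not tested, since both of its probe sets were below the median on all arrays. At one of them it gave 21.4, 24.1 and 20.7 against 2.26, 5.36 and 2.74, which is no statement of presence.

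Polarity was represented by LLGL2 and CRB3. LLGL2 encodes a lethal giant larvae protein of the basolateral Scribble group, and it is the only gene of the 30 that rose. At its brightest probe set, 203713_s_at, the signal was 335, 366 and 375 with CT45A1 and 258, 237 and 201 without it. All overexpression arrays lay above all negative ones, and the difference was 0.63 (SE 0.15, limma adjusted p = 0.0418), or 1.55-fold with a 95% interval of 1.24 to 1.94. The second LLGL2 probe set, 1554006_a_at, gave 322, 194 and 204 against 209.7, 223 and 266. These overlapped, and the probe set differed by 0.01 (SE 0.21, adjusted p over probe sets = 0.980). The log2 ratio between the 2 probe sets differed by 0.62 between groups (exact permutation test, two-sided p = 0.3, and 0.36 adjusted over 6 ratios), so a difference between the probe sets was not shown. The call at the brightest probe set stood close to the threshold, and it was kept in 2 of 17 alternatives (an offset of 32 and robust eBayes). It was lost when any 1 of the 6 arrays was left out, at 0.54 to 0.71 (adjusted p = 0.0697 to 0.159), and the mean of its probe sets differed by 0.32 (adjusted p = 0.188). CRB3, an apical Crumbs protein, differed by 0.10 (SE 0.12, limma adjusted p = 0.686), with 379, 425 and 424 against 397, 362 and 389, which overlapped.

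The 6 desmosome genes had a median difference of -0.014, and none passed. At its brightest probe set, the interval of each lay within a 1.5-fold change. DSP encodes desmoplakin, the link to keratin filaments, and differed by 0.0032 (SE 0.07), at 14.04 ± 0.12 against 14.04 ± 0.06 (mean log2 signal ± SD, n = 3). JUP encodes plakoglobin, shared with adherens junctions, and differed by -0.03 (SE 0.06). The plakophilins PKP2 and PKP3 differed by -0.11 and 0.16, PKP2 without overlap, and neither passed. The desmosomal cadherins are DSG2 and DSC2. DSG2 differed by -0.13 (SE 0.08, limma adjusted p = 0.377), with 0.06 at its other probe set, and it passed with the actin ratio in the model, at -0.40 (adjusted p = 0.0457). DSC2 signal was 2184, 2147 and 2431 with CT45A1 and 1823, 1957 and 2009.6 without it. These did not overlap, and the difference was 0.22 (SE 0.08, limma adjusted p = 0.151). A second DSC2 probe set also did not overlap, at 474, 522 and 488 against 385, 412 and 388, with 0.32 (adjusted p over probe sets = 0.134). Its 2 dimmer probe sets differed by -0.07 and 0.06.

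The remaining 4 members are membrane and trafficking genes expressed mainly in epithelia. SPINT2, a Kunitz inhibitor of matriptase and related membrane proteases, gave 9729, 9836 and 9657 with CT45A1 and 7823, 8998 and 9066 without it. The groups did not overlap, and the difference was 0.18 (SE 0.07, limma adjusted p = 0.175). MAL2, a carrier of apical transcytosis, differed by 0.15 (adjusted p = 0.263), also without overlap. CDS1, an enzyme of phosphoinositide synthesis, differed by -0.13 without overlap (adjusted p = 0.313), and centred on array medians it passed, at -0.27 (adjusted p = 0.0334). AP1M2 encodes the epithelial subunit of the AP-1 clathrin adaptor. Its signals of 1322, 1354 and 1307 against 1329.8, 1277 and 1378 were the closest between groups of any member, at -0.00025 (SE 0.08).

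Probe sets of 1 gene did not always point in the same direction. Of 17 members with several tested probe sets, 6 (CDH1, EHF, MARVELD3, DSG2, DSC2 and CDS1) had differences of both signs. In MARVELD3, DSG2, DSC2 and CDS1 one of the signs came only from a value close to 0 (0.01, 0.06, -0.07 and 0.02 in that order). No share over all genes is given beside this count. The widest spans were in EHF, from -0.51 to 0.20, and in LLGL2, from 0.01 to 0.63. The narrowest were in TJP1, from 0.05 to 0.06, and in PKP3, from 0.16 to 0.18.

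Negative replicate 3 lay nearest to the overexpression arrays for several of the members that differed most. Of the 6 members with a difference of at least 0.3, this array had the highest negative signal in 5 (all but LLGL2), and it did so in 17 of the 30 members and in 36.2% of all genes tested. Its actin ratio, 1.91, was the highest of the 6 arrays.

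Other genes of the same structures were read from lists of partners. Of 92 listed, 86 had probe sets, 60 were tested and 1 passed (1.67%, beside 3.83% of all genes), EVPL, which encodes envoplakin of the cornified envelope and desmosomal plaque. It rose by 0.71 (SE 0.16, limma adjusted p = 0.0377), with 289, 282 and 262 against 161, 163 and 187 and no overlap. EVPL kept the call in 6 of 17 alternatives and lost it after quantile normalization, at 0.59 (adjusted p = 0.0661), and without any array other than negative replicate 3 (0.0705 to 0.143). An unadjusted p under 0.05 was reached by 17 of the 60, and by 20.9% of all genes. Of 11 catenin and nectin genes tested none passed, 6 had an unadjusted p under 0.05, and the smallest p was in NECTIN4, an immunoglobulin-like adhesion receptor, at 0.41 (adjusted p = 0.0707). Among 13 other tight junction genes none passed and 3 had an unadjusted p under 0.05, with the smallest p in ILDR1, a protein of tricellular contacts, at 0.50 (adjusted p = 0.0780). Among 18 other polarity genes none passed and 2 had an unadjusted p under 0.05, with the smallest p in LIN7C, a Crumbs complex scaffold, at -0.21 (adjusted p = 0.124). Among 7 other epithelial transcription factors none passed and 0 had an unadjusted p under 0.05, with the smallest p in TFAP2C, at -0.12 (adjusted p = 0.308).

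Of 10 listed repressors of epithelial genes, 5 were tested and none passed. An unadjusted p under 0.05 was reached by 3 (1 higher, 2 lower), and by 20.9% of all genes. SNAI2, which encodes Slug, had the smallest p and gave 1657, 1595 and 1398 with CT45A1 against 2189, 2054 and 1579 without it. These overlapped, at a difference of -0.31 (SE 0.12, limma adjusted p = 0.183). The other 4 tested (TWIST2, TCF3, TCF4 and FOXC2) differed by -0.28, 0.19, -0.11 and -0.07. TCF3, the only one above 0, had an unadjusted p under 0.05. It was also the only one of the 5 whose groups did not overlap, against 27.2% of all genes. SNAI1, SNAI3, ZEB1, ZEB2 and TWIST1 were too dim to test, so no statement is made on them.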

How the data were processed

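Total RNA of NCI-H292 cells was labelled for 3' expression arrays (per the labels). Each deposited value is an intensity on a linear scale, the MAS5 signal of a probe set, which the authors made with MAS5 and affy according to the submitters' processing notes. Versions and genome build are not given in the sources used here. On every array the 2% trimmed mean was 500.1. Signals were taken to log2, 62 control probe sets were removed, and probe sets above the array median on at least 3 of 6 arrays were kept. Detection calls were not used.

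A single limma model (lmFit, eBayes with trend) was fitted over all 27618 kept probe sets. P-values were adjusted over these or over the brightest probe set of each of 11895 genes, at a threshold of 0.05, two-sided. SEs and 95% intervals are those of limma. The code was tested on simulated data. Symbols came from the platform annotation, updated through Entrez identifiers to RefSeq on GRCh38.p14. Arrays of 1 group differed by an SD of 0.380 to 0.456 on the log2 scale, so none was a duplicate.

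The members and lists were chosen with earlier results of these data known. The rule gave values on every array for CDH1 and EPCAM, for members past the threshold over genes or probe sets, for the largest difference in each role, and for members with no overlap and a difference of at least 0.3, with all probe sets of a gene where they disagreed. Values of other members on every array, and the ranges of signal level, were added after the values were seen. Per partner list, genes past the threshold, or else the 1 with the smallest p, are named, and all tested repressors were added. Alternatives were quantile normalization, median centring, cyclic loess, no filter, a stricter filter (75th percentile), an offset of 32, no variance trend, robust eBayes, a replicate block, the actin ratio as covariate, the mean of probe sets, no _x_at or _s_at probe sets, and leaving out each array. The software was limma 3.58.1 in R 4.3.3, with scipy 1.17.1 in Python 3.11.15 for permutation tests.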

Additional observations from a re-analysis of the deposited data

How the results depend on the processing

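LLGL2 was the 1 member past the threshold, and its difference was above 0 in all 17 alternatives that gave one. It kept the call in only 2 of these. Without _x_at and _s_at probe sets it was read at its other probe set, at 0.01 (limma adjusted p = 0.982). The count of members past the threshold was 0 after quantile normalization, cyclic loess, no filter, the filter at the 75th percentile, no variance trend, the replicate block, the mean of probe sets, and without _x_at and _s_at probe sets. It was 4 with centred arrays and 3 with the actin ratio as covariate (GRHL1 and ELF3 higher, DSG2 lower), and 0 to 1 when single arrays were left out. The count among partner genes was 0 after quantile normalization, cyclic loess, no filter, the 75th percentile filter, no variance trend and the replicate block, 10 with centred arrays (1 higher, 9 lower), 3 with the actin ratio, 2 with the mean of probe sets, and 0 to 3 when single arrays were left out. Member probe sets past the threshold numbered 7 with centred arrays, 0 without the variance trend and without _x_at and _s_at probe sets, and 0 to 4 when single arrays were left out. Over all genes the count was 1815 with centred arrays, 11 without the variance trend and 91 to 565 when single arrays were left out. The members' median difference was -0.11 with centred arrays and 0.10 with the actin ratio. Where no cause is plain from fewer samples or genes tested, the cause was not tested.

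Deviations of same-numbered arrays from their group means had correlations of -0.011, -0.0068 and 0.10, and those of other pairs had -0.10 to 0.11. With 3 arrays a group these values do not settle whether same-numbered arrays were paired. The replicate block gave 536 genes past the threshold in place of 456. Across the 18 alternatives 22 of the 30 members never passed, and 13 changed sign in at least 1. There were 3 arrays a group and 4 residual degrees of freedom. The widest interval among members was that of TJP3, -0.05 to 1.66 on the log2 scale, and of the 7 members with a mean log2 signal under 9, CRB3, CGN and MARVELD3 had intervals within a 1.5-fold change.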
